A study of Homo sapiens with 2 samples.

Results

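The RAB GTPases, the small GTP-binding proteins that direct vesicle traffic, were taken as every gene whose symbol is RAB followed by a number and at most 1 further letter. This rule used names only and no measured value. It picked 53 of the 12014 genes listed in both libraries, and 48 of the 53 had a mean of at least 1 FPKM, as did 10702 genes in all. FPKM is a fragment count divided by gene length and by library size, so levels of different genes can be set side by side on this scale. GENCODE 29 names 63 protein-coding genes that meet the rule, and the other 10 (RAB25, RAB37, RAB3A, RAB3C, RAB40A, RAB41, RAB44, RAB6C, RAB6D and RAB7B) were not analysed here.

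The study asked what KIAA1429, also called VIRMA, a subunit of the complex that writes N6-methyladenosine (m6A) on mRNA, does in renal cell carcinoma. Poly(A) RNA of ACHN cells, an established line from a metastatic human renal cell carcinoma, was sequenced in 2 libraries, 1 named ACHN_sh and 1 named NC. Both groups were ACHN cells given a lentiviral shRNA, against KIAA1429 in ACHN_sh and a negative control in NC. The labels call ACHN_sh a knockout, whereas the methods of the study describe an shRNA knockdown and do not state which of its KIAA1429 shRNAs was sequenced. There was 1 library per group, so no difference had a replicate check, no test was run and no p-value is given. In bulk RNA, fewer cells that express a gene and less RNA per cell cannot be told apart.

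The targeted gene, listed as VIRMA, was at 3.92 FPKM in NC and at 3.22 FPKM in ACHN_sh, which is 82.1% of the control level. The library labelled ACHN_sh held most of the NC level of the mRNA that the shRNA targets. By RT-qPCR and western blot, the study reports significantly lower KIAA1429 mRNA and protein in its ACHN knockdown cells. Of 7 renal epithelial markers 6 were listed. Those reported ran from PAX2 at 31.4 FPKM in NC and 39.3 in ACHN_sh to KRT19 at 292 and 212 FPKM. Between them were KRT18 at 67.4 and 78.6, KRT8 at 78.3 and 74.6, and PAX8 at 64.7 and 104. Of 5 leukocyte markers only CD68, which is also present in other cells, was listed, at 3.87 and 2.06 FPKM, and none of 4 endothelial markers was listed. Of 5 fibroblast markers COL1A1 was at 1.08 and 1.62 FPKM and PDGFRB at 0.667 and 0.977 FPKM. Mitochondrial genes made up 42.2% of the summed FPKM in NC and 34.6% in ACHN_sh, and the part of this shift in the RAB values was not tested beyond the rescaled values given beside them.

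A RAB protein switches between a GTP-bound form, which sits on a membrane and recruits effectors such as tethers and motors, and a GDP-bound form, which is drawn back into the cytosol. Exchange factors load GTP and GTPase-activating proteins speed its hydrolysis, while RAB escort proteins and a geranylgeranyl transferase add the lipid anchor. Each RAB marks its own compartments, and in kidney epithelium these proteins carry receptors and transporters between the cell surface, endosomes, lysosomes and the Golgi. Many RABs exist as close paralogs with overlapping duties.

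RAB proteins share a loop that grips the phosphates of GTP, and its coding bases are shown for the paralog sets whose balance differed most between the libraries. A loop of this pattern was found in the coding sequence of 51 of the 53 genes. Sequences are from GENCODE 29 on GRCh38, read 5′ to 3′ on the coding strand, and capitals mark bases that differ from the first gene of each set.
RAB5C: ggggagtctgcggtaggcaaatcc
RAB5A: ggAgagtcCgcTgtTggcaaatcA
RAB5B: ggAgaAtctgcAgtGggAaaGtcA
RAB4A: ggaaatgcaggaactggcaaatct
RAB4B: ggCaGtgcaggaactggcaaatcA
RAB27A: ggagactctggtgtagggaagacc
RAB27B: ggGgaTtcAggGgtGgggaagacA
These lie in coding exons, at chr17:42130398-42130421 on the minus strand in exon 3 for RAB5C, at chr3:19950977-19951000 on the plus strand in exon 2 for RAB5A, and at chr12:55987039-55987062 on the plus strand in exon 2 for RAB5B. The RAB4A loop is at chr1:229286512-229286535 on the plus strand in exon 2, and that of RAB4B at chr19:40780045-40780068 on the plus strand in exon 2. RAB5A differed from RAB5C at 5 of the 24 bases and RAB5B at 7, and RAB4B differed from RAB4A at 3. The RAB27A loop is at chr15:55234866-55234889 on the minus strand in exon 3 and the RAB27B loop at chr18:54877631-54877654 on the plus strand in exon 2, and they differed at 6 bases. Over their whole coding sequences the 19 paralog pairs compared were 63.5% to 78.8% identical. An exact run of 50 bases was shared by 1 pair, RAB40B and RAB40C, and the longest exact run shared by any other pair was 28 bases. How the authors' software divided fragments between paralogs was not tested.

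The summed RAB mRNA was led by the same few genes in both libraries. In NC, RAB7A, which drives fusion of late endosomes with lysosomes, was the highest at 70.5 FPKM, and it was also the highest in ACHN_sh at 72.7 FPKM. RAB5C of early endosomes was next, at 69.6 FPKM in NC and 62.7 FPKM in ACHN_sh. RAB13, which serves tight junctions and epithelial secretion, was at 62.6 and 56.7 FPKM, and RAB10, which carries cargo to the cell surface, was at 62.5 and 58.3 FPKM. These 4 genes held the first 4 places in each library, and RAB10 and RAB13 changed places. The 10 highest in NC also held RAB1A, RAB1B, RAB11B, RAB34, RAB32 and RAB29, and 8 of the 10 were among the 10 highest in ACHN_sh. The 10 highest made up 64.8% of the summed RAB level in NC and 63.5% in ACHN_sh. At the other end, 12 of 53 genes were under 2 FPKM in NC and 14 in ACHN_sh.

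The 53 genes together gave 722 FPKM in NC and 695 FPKM in ACHN_sh, which is 96.3% of the control sum. This sum hid larger moves in both directions. The 24 genes with a higher value in ACHN_sh added 47.7 FPKM, and the 29 with a lower value took away 74.6 FPKM. The greatest single gain was that of RAB5A, 11.8 FPKM, and the greatest single loss was that of RAB1A, from 52.1 to 41.2 FPKM. The sum was lower in ACHN_sh on the deposited scale, with a log2 ratio of -0.05. It was higher, with a log2 ratio of 0.13, once both libraries were rescaled to the same total with mitochondrial genes included. With mitochondrial genes left out of that total it was lower, with a log2 ratio of -0.05.

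**Figure D1:**
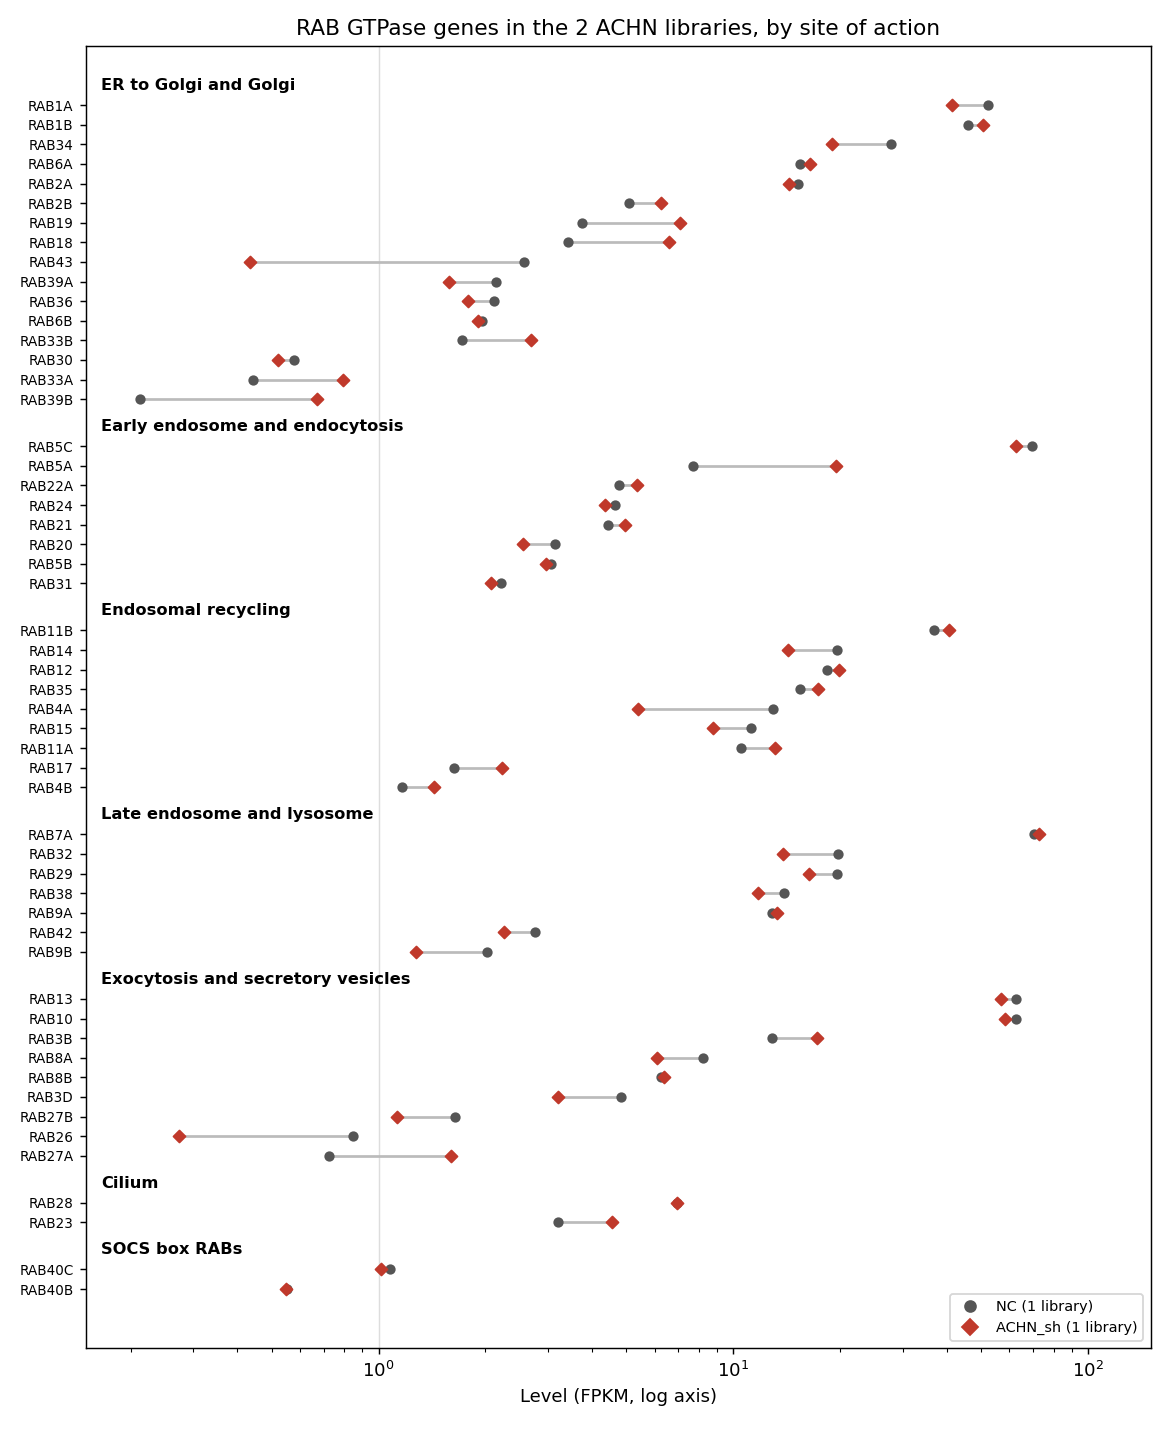
Level of each of the 53 RAB genes in FPKM on a log axis, grouped by site of action, with a circle for the NC library, a diamond for the ACHN_sh library and a line that joins them. Most pairs of points lie close together, while RAB5A moved from 7.72 to 19.5 FPKM and RAB43 from 2.56 to 0.433 FPKM.

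Changes were computed for each gene as the log2 of FPKM plus 1 in ACHN_sh minus the same in NC (for low genes this scale gives less than the true ratio). Over the 48 RAB genes kept, the median log2 change was -0.04, with quartiles of -0.26 and 0.15. Over all 10702 genes it was 0.06, with quartiles of -0.15 and 0.27. Rescaling both libraries to the same total, mitochondrial genes included, moved the median of all genes up by 0.18 and that of the RAB genes to 0.11. With mitochondrial genes left out of that total the RAB median was -0.06, so its sign depends on which total is used. It lay below the median of all genes under each scaling tried. Of the RAB genes 22 were above 0 (45.8%), against 57.3% of all genes.

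Most RAB genes differed little. A log2 change within 0.5 in either direction was found for 41 of 48 RAB genes (85.4%) and for 84.0% of all genes. Higher in ACHN_sh by over 0.5 were 4 RAB genes (8.33%), RAB5A, RAB18, RAB19 and RAB27A, where the share of all genes was 9.9%. Of these, RAB27A was at 0.725 FPKM in NC and was kept only through its level in ACHN_sh. Lower by over 0.5 were 3 RAB genes (6.25%), RAB43, RAB4A and RAB34, against 6.12% of all genes. On the deposited scale these shares were near those of all genes, and the lower count moved with the setting. It was 7 (14.6%, against 8.73% of all genes) with a pseudocount of 0.1 and 6 (12.5%, against 8.39%) after rescaling without mitochondrial genes. It was 2 after rescaling to the same total (4.17%, against 4.59%) and 2 of 43 without overlapping genes (4.65%, against 5.68%). Past a log2 change of 1 there was 1 higher RAB gene, RAB5A (2.08%, against 1.61% of all genes), and there were 2 lower, RAB43 and RAB4A (4.17%, against 0.897%). Past 1.5 there were 0 RAB genes and 0.635% of all genes. With a pseudocount of 0.1 and under both rescalings there was 1 RAB gene, RAB43. The share of all genes past 1.5 was not computed under those settings, so this count has nothing to be read against. The methods of the study give 1.5 as a limit on the absolute log2 fold change in DESeq2, together with a p-value limit. That p-value limit could not be applied here, and the log2 change of FPKM plus 1 is a different measure. Adding 1 to each FPKM shrinks the change of low genes such as RAB43, at 16.9% of its NC level.

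**Figure D2:**
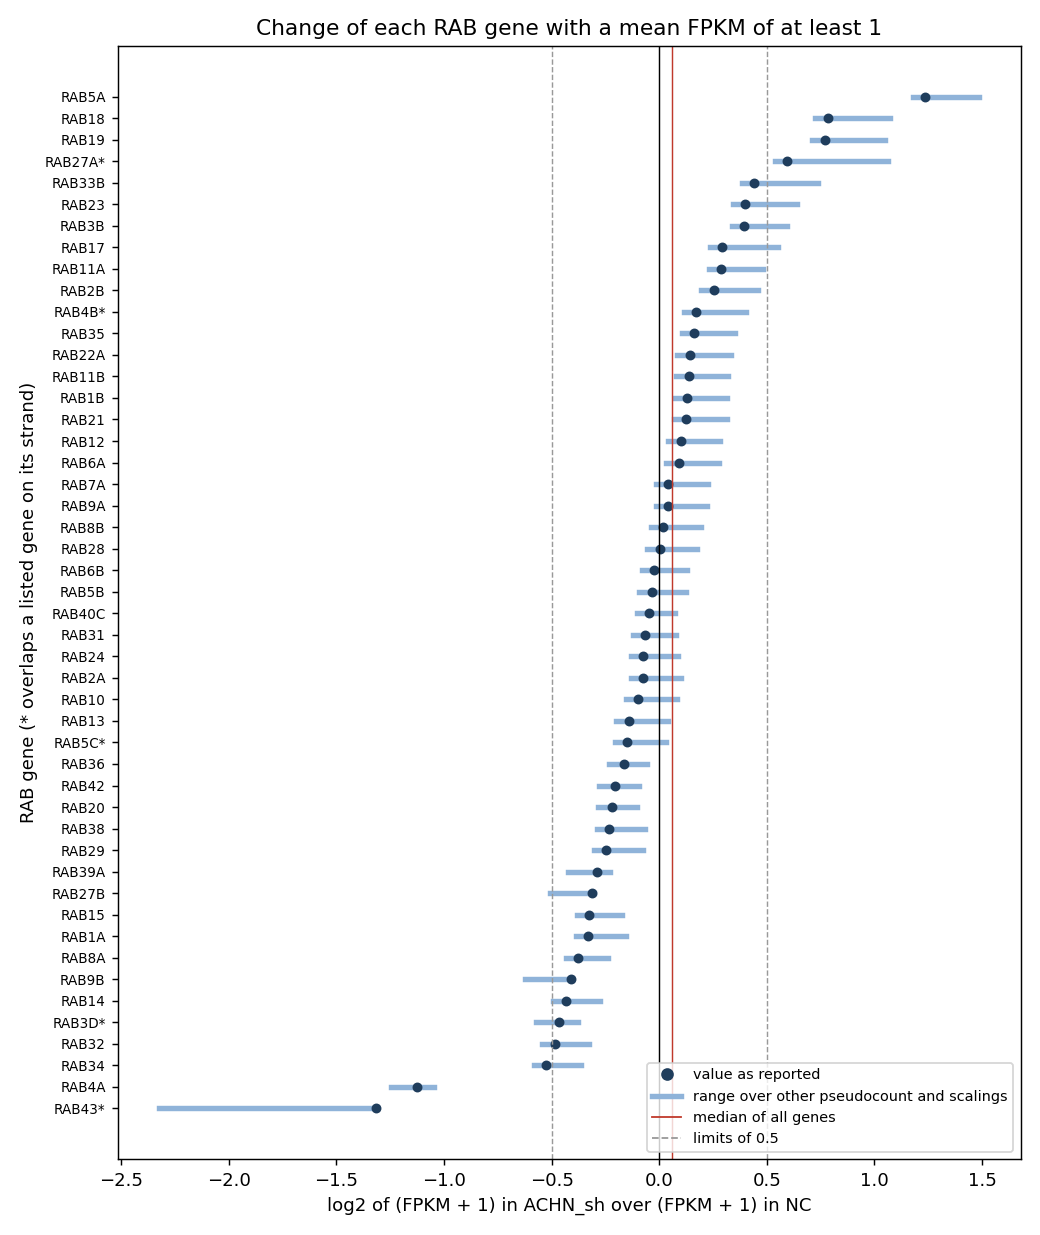
Log2 change of FPKM plus 1 in ACHN_sh relative to NC for the 48 RAB genes kept, in order of their change, with a point for the value on the deposited scale and a bar for its range over the other pseudocount and scalings; dashed lines mark 0.5 in either direction and an asterisk marks a gene that overlaps another listed gene on its strand. RAB5A stands at the top with 1.24, and RAB4A and RAB43 stand at the bottom with -1.13 and -1.31.

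Among the early endosome RABs, RAB5A was the gene with the largest gain of the family. RAB5A (ENSG00000144566.10_3, on the plus strand of chromosome 3 of GRCh37 from 19988571 to 20026667), which directs the fusion of incoming vesicles with early endosomes, was at 7.72 FPKM in NC and at 19.5 FPKM in ACHN_sh. The ratio of these levels was 2.53 and the log2 change 1.24, place 86 of 10702 genes when counted from the largest gain. Over the other pseudocount and scalings its log2 change ran from 1.18 to 1.49. RAB5A moved from place 23 among the RAB genes in NC to place 9 in ACHN_sh. Its paralogs did not follow it: RAB5B was at 3.06 and 2.97 FPKM and RAB5C at 69.6 and 62.7 FPKM. The 3 RAB5 genes summed to 80.4 FPKM in NC and to 85.2 FPKM in ACHN_sh, a log2 change of 0.08. Within that sum RAB5A made up 9.61% in NC and 22.9% in ACHN_sh, and RAB5C made up 86.6% and 73.6%. RAB5C thus remained the main RAB5 transcript in both libraries. A gene listed as AC099811.2 overlaps RAB5C on its strand and was listed at 0 in NC and at 1.004 FPKM in ACHN_sh.

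The other early endosome RABs all had a log2 change within 0.25 in either direction. RAB21, which takes part in the uptake of integrins, was at 4.44 and 4.94 FPKM, and RAB22A, which acts between early endosomes and the trans-Golgi, was at 4.75 and 5.35 FPKM. Its paralog RAB31 was at 2.22 and 2.07 FPKM. RAB20 was at 3.14 and 2.56 FPKM, and RAB24, which takes part in autophagy, was at 4.63 and 4.35 FPKM. The median of the 8 genes of this list was -0.05, with 3 above 0 and 5 below. RAB5A was the only one of the 8 past 0.5 (12.5% higher, against 9.9% of all genes).

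In the recycling list, the largest loss was that of RAB4A (ENSG00000168118.11_3, on the plus strand of chromosome 1 of GRCh37 from 229406809 to 229441641), which returns receptors from early endosomes to the cell surface by the fast route. RAB4A was at 13.0 FPKM in NC and at 5.40 FPKM in ACHN_sh, 41.7% of the level in NC. The log2 change was -1.13, place 62 of 10702 genes when counted from the largest loss, and it ran from -1.25 to -1.05 over the other pseudocount and scalings. Its paralog RAB4B was at 1.16 FPKM in NC and at 1.44 FPKM in ACHN_sh, a log2 change of 0.17. The summed level of both went from 14.1 to 6.83 FPKM, a log2 change of -0.95, so the RAB4 sum moved almost as far as RAB4A did. RAB4B overlaps a read-through gene, RAB4B-EGLN2, at 0.917 and 0.777 FPKM, and its neighbour EGLN2 was at 2.75 and 3.77 FPKM.

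RAB11A and RAB11B of the slow recycling route had higher values in ACHN_sh, though within 0.5. RAB11A, which acts in the perinuclear recycling compartment, was at 10.5 FPKM in NC and at 13.1 FPKM in ACHN_sh, and RAB11B was at 36.8 and 40.6 FPKM. RAB35, which recycles cargo to the plasma membrane and acts in cytokinesis, was at 15.4 and 17.4 FPKM. RAB14, which moves cargo between endosomes and the Golgi, was at 19.6 and 14.2 FPKM. RAB12 was at 18.4 and 19.8 FPKM, RAB15 at 11.2 and 8.76 FPKM, and RAB17, an epithelial RAB of transcytosis, at 1.63 and 2.22 FPKM. The median of the 9 recycling genes kept was 0.14, with 6 above 0 and 3 below, so RAB4A stood apart from most of its list.

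RAB5A and RAB4A act in successive steps on early endosomes and had opposite changes, and the RefSeq promoter windows of GRCh38.p14, from 250 bases before to 50 bases after each start, were compared for them. The letters CACGTG, the E-box that MYC with MAX and several other factors are known to bind, read the same on both strands. They were found in 6 of the 42 RAB genes with an entry (14.3%), in 10.5% of the 8457 genes kept that had one, and in 7.30% of all 27305 promoters. Both RAB5A and RAB4A were among the 6, with RAB21, RAB24, RAB29 and RAB31. The 30 bases around the match are shown for the genes whose match lies before the start, with the match in capitals.
RAB5A: cactcgcagggtCACGTGacatcctgcctc
RAB4A: gcccagcccgcgCACGTGcttccggcgcgc
RAB21: ggcaccggcgctCACGTGacccgaggtgtg
RAB24: cggcgcccgcgcCACGTGaccttgcggccc
RAB31: ccggccggcggcCACGTGacccaccgcggc
The windows are at chr3:19946964-19946993 on the plus strand for RAB5A, at chr1:229270997-229271026 on the plus strand for RAB4A and at chr12:71754831-71754860 on the plus strand for RAB21. Those of RAB24 and RAB31 are at chr5:177303732-177303761 on the minus strand and at chr18:9708229-9708258 on the plus strand. The match starts at position -121 for RAB5A and at -102 for RAB4A, counted from the start. RAB21, RAB24, RAB31 and RAB29, whose match starts at position 20, had log2 changes of 0.13, -0.07, -0.06 and -0.25. The median log2 change of the RAB genes was -0.07 with the letters and 0.01 without. Among all genes kept, the median log2 change was 0.07 with the letters and 0.06 without. A match of letters is a description and not a site of binding.

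Of the RABs that act between the endoplasmic reticulum and the Golgi and within the Golgi, 13 were kept, 2 were higher by over 0.5 and 2 were lower (15.4% each, against 9.9% and 6.12% of all genes). RAB18, which acts at the endoplasmic reticulum and on lipid droplets, was at 3.42 FPKM in NC and at 6.61 FPKM in ACHN_sh, a log2 change of 0.78. RAB19, a Golgi RAB, was at 3.75 and 7.10 FPKM, a log2 change of 0.77. Both lie on the plus strand, RAB18 on chromosome 10 of GRCh37 from 27793103 to 27831166 and RAB19 on chromosome 7 from 140103843 to 140126050, and neither overlaps another listed gene on its strand. RAB34, which acts at the Golgi and in the formation of cilia, was at 27.8 FPKM in NC and at 19.0 FPKM in ACHN_sh, a log2 change of -0.53 that became -0.36 when both libraries were rescaled to the same total.

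The highest genes of this list were the paralogs RAB1A and RAB1B, which carry vesicles from the endoplasmic reticulum to the Golgi. RAB1A was at 52.1 and 41.2 FPKM and RAB1B at 46.0 and 50.5 FPKM, so their order differed between the libraries. Their sum was 98.1 FPKM in NC and 91.7 FPKM in ACHN_sh. RAB6A, which returns cargo from the Golgi to the endoplasmic reticulum, was at 15.4 and 16.5 FPKM, and its paralog RAB6B was at 1.95 and 1.91 FPKM. RAB2A was at 15.2 and 14.4 FPKM and RAB2B at 5.08 and 6.25 FPKM. Among the low genes of the list, RAB36 was at 2.12 and 1.78 FPKM and RAB39A at 2.15 and 1.58 FPKM. The median of the list was -0.02.

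RAB43 had the largest loss of the family, and its value depends on how fragments were divided between overlapping genes. RAB43 (ENSG00000172780.16_3, on the minus strand of chromosome 3 of GRCh37 from 128806412 to 128841644), a Golgi RAB, was at 2.56 FPKM in NC and at 0.433 FPKM in ACHN_sh, a log2 change of -1.31. The read-through gene ISY1-RAB43, which joins RAB43 to its neighbour ISY1 on the same strand, was listed at 0 in NC and at 4.08 FPKM in ACHN_sh. ISY1, a splicing factor, was at 5.83 and 2.81 FPKM. RAB43 and the read-through gene together gave 2.56 FPKM in NC and 4.51 FPKM in ACHN_sh, a log2 change of 0.63, so the direction for RAB43 turned. All 3 genes together gave 8.39 and 7.32 FPKM, a log2 change of -0.18. Less RNA from RAB43 and a different division of fragments cannot be told apart in these files.

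**Figure D3:**
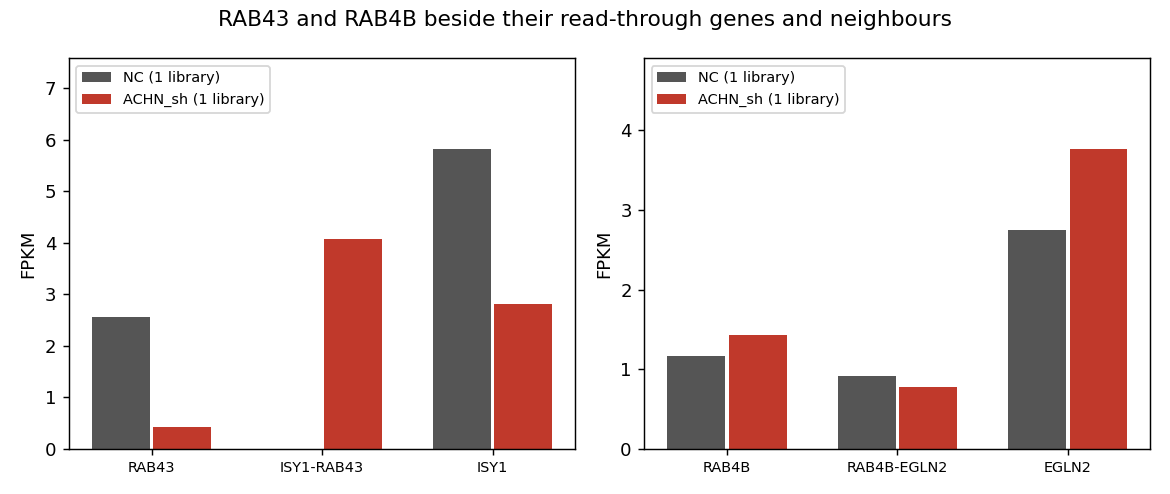
FPKM of RAB43, ISY1-RAB43 and ISY1 (left) and of RAB4B, RAB4B-EGLN2 and EGLN2 (right), with a grey bar for the NC library and a red bar for the ACHN_sh library. RAB43 and ISY1 have the taller bar in NC while ISY1-RAB43 has a bar in ACHN_sh only, and the 3 genes on the right have bars in both libraries.

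The late endosome and lysosome RABs were the role list with the lowest median. The 7 genes had a median log2 change of -0.23, a difference of -0.29 from the median of all genes, with 5 below 0 and 2 above. This difference ran from -0.33 to -0.29 over the alternatives tried. None of the 7 genes was past 0.5 on the deposited scale, and 84.0% of all genes were within it. RAB32, which with RAB38 serves lysosome-related organelles, was at 19.8 FPKM in NC and at 13.8 FPKM in ACHN_sh, a log2 change of -0.48. RAB38 was at 13.9 and 11.7 FPKM, and the sum of this pair went from 33.7 to 25.5 FPKM, a log2 change of -0.39. RAB29, which recruits the kinase LRRK2 to membranes, was at 19.6 and 16.4 FPKM. The 2 genes above 0 were RAB7A and RAB9A, which returns mannose 6-phosphate receptors to the trans-Golgi, at 12.9 and 13.3 FPKM. Its paralog RAB9B was at 2.02 and 1.28 FPKM, and RAB42 was at 2.77 and 2.26 FPKM.

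Among the RABs of exocytosis, RAB27A was the only one of 8 past 0.5 (12.5% higher, against 9.9% of all genes). RAB27A, which docks secretory lysosomes and exosome-bearing bodies at the plasma membrane, was at 0.725 FPKM in NC and at 1.60 FPKM in ACHN_sh, a log2 change of 0.59, and its paralog RAB27B was at 1.65 and 1.13 FPKM. The leading RAB27 transcript thus differed between the libraries, at levels near the limit of 1 FPKM, and RAB27A was kept only through its level in ACHN_sh. RAB27A overlaps PIGBOS1, at 2.55 and 3.00 FPKM, and the log2 change of both summed was 0.39. RAB3B of regulated secretion was at 12.9 and 17.2 FPKM, a log2 change of 0.39, and its paralog RAB3D was at 4.83 and 3.22 FPKM, a log2 change of -0.47. RAB3D overlaps TMEM205, at 20.2 and 15.0 FPKM. RAB8A, which carries membrane to the cell surface and the cilium, was at 8.20 and 6.09 FPKM and RAB8B at 6.27 and 6.36 FPKM. The median of this list was -0.12.

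Of the 2 ciliary genes, RAB23, a brake on Hedgehog signalling, was at 3.21 and 4.54 FPKM, and RAB28 was at 6.95 and 6.96 FPKM. RAB33B, a Golgi RAB that binds the autophagy protein ATG16L1, was at 1.71 and 2.68 FPKM, a log2 change of 0.44. RAB40C, which has a SOCS box that joins cullin ubiquitin ligases, was at 1.08 and 1.01 FPKM. The 5 genes with a mean under 1 FPKM were RAB26 at 0.849 and 0.273 FPKM, RAB30 at 0.578 and 0.520, RAB40B at 0.552 and 0.547, RAB33A at 0.442 and 0.796, and RAB39B at 0.212 and 0.670. They were listed because at least 1 library was above 0.5 FPKM, and no change is drawn from them.

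**Figure D4:**
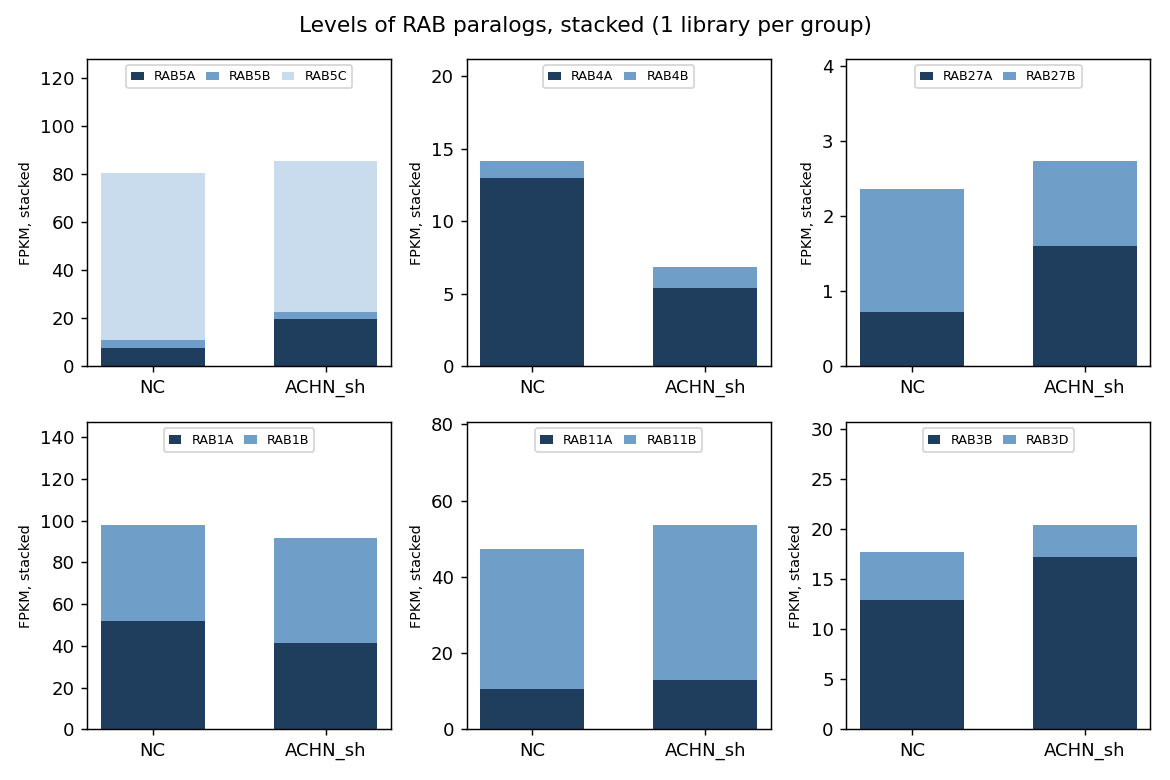
Stacked FPKM of the paralogs of RAB5, RAB4, RAB27, RAB1, RAB11 and RAB3 in the NC and ACHN_sh libraries, 1 library each, with a shade for each gene. The RAB5 stacks are of similar height, 80.4 and 85.2 FPKM, with a larger RAB5A part in ACHN_sh, while the RAB4 stack drops from 14.1 to 6.83 FPKM.

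The paralog balance differed most for RAB27A, which made up 30.6% of its pair in NC and 58.7% in ACHN_sh. This pair was low, with a sum of 2.37 FPKM in NC and 2.73 FPKM in ACHN_sh. RAB27A was under 1 FPKM in NC, was kept only through its level in ACHN_sh, and overlaps PIGBOS1. RAB1A made up 53.1% and 45.0% of its pair, RAB8A 56.7% and 48.9% of the pair with RAB8B, and RAB3B 72.7% and 84.3% of the pair with RAB3D. The balance of RAB6A, at 88.8% and 89.6%, and of RAB11A, at 22.2% and 24.3%, was close to level. Shares within a set do not depend on the scaling of the libraries.

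The genes that load, deliver and switch off RABs were described from 4 lists of known family members. All 8 genes of prenylation and membrane delivery were kept, with a median log2 change of 0.11. CHM, a RAB escort protein, was the only one past 0.5 (12.5% higher, against 9.9% of all genes). CHM was at 1.70 FPKM in NC and at 3.24 FPKM in ACHN_sh. Of 41 exchange factors kept, 3 were higher by over 0.5 (7.32%, against 9.9% of all genes) and 2 lower (4.88%, against 6.12%), with a median of -0.03. The higher ones were TRAPPC5 at 1.27 and 3.79 FPKM, DENND4C at 2.51 and 4.10 FPKM and TRAPPC10, which overlaps another listed gene on its strand, at 3.36 and 5.29 FPKM. The lower ones were TRAPPC1 at 79.8 and 49.9 FPKM and TRAPPC6A at 7.34 and 4.72 FPKM. The other 6 genes kept of TRAPP, the complex that loads GTP on RAB1, lay within 0.5, from TRAPPC3 with a log2 change of -0.39 to TRAPPC2 with 0.31. RABGEF1, an exchange factor of RAB5 named here after its values were seen, stands on 2 rows, at 8.69 and 8.50 FPKM on the row kept and at 1.08 and 5.52 FPKM on the other, which overlaps the first and KCTD7. Both rows summed gave 9.77 and 14.02 FPKM, a log2 change of 0.48.

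Of 30 GTPase-activating proteins kept, 3 were higher by over 0.5, a share close to the 9.9% of all genes, and 1 was lower (3.33%, against 6.12%), with a median of 0.09. TBC1D15, which acts on RAB7, was at 5.89 FPKM in NC and at 10.03 FPKM in ACHN_sh, and RAB3GAP1, a subunit of the complex that acts on RAB3 and also loads RAB18, was at 8.97 and 13.8 FPKM. TBC1D8 was at 2.51 and 3.99 FPKM and GRTP1 at 1.46 and 0.728 FPKM. RAB3GAP1 and RAB18 both had a log2 change over 0.5. RAB3GAP2 of the same complex, named here after its values were seen, was at 5.93 and 7.67 FPKM, a log2 change of 0.32.

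Of 46 effectors kept, 3 were higher by over 0.5 and 3 lower (6.52% each, against 9.9% and 6.12% of all genes), with a median of 0.12. The higher ones were EHBP1L1, which binds RAB8, at 3.91 and 8.38 FPKM, the motor MYO5A at 1.18 and 2.48 FPKM and the RAB11 effector WDR44 at 2.86 and 4.63 FPKM. The lower ones were RAB11FIP1 at 48.1 and 30.6 FPKM, RAB11FIP5, which overlaps SFXN5, at 13.2 and 8.95 FPKM, and LRRK2 at 2.33 and 1.32 FPKM. The other RAB11-binding proteins of this family kept in the list lay within 0.5, RAB11FIP2 at 7.88 and 7.75 FPKM and RAB11FIP3 at 8.28 and 9.29 FPKM. Each of these lists had a median within 0.1 of the median of all genes.

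**Figure D5:**
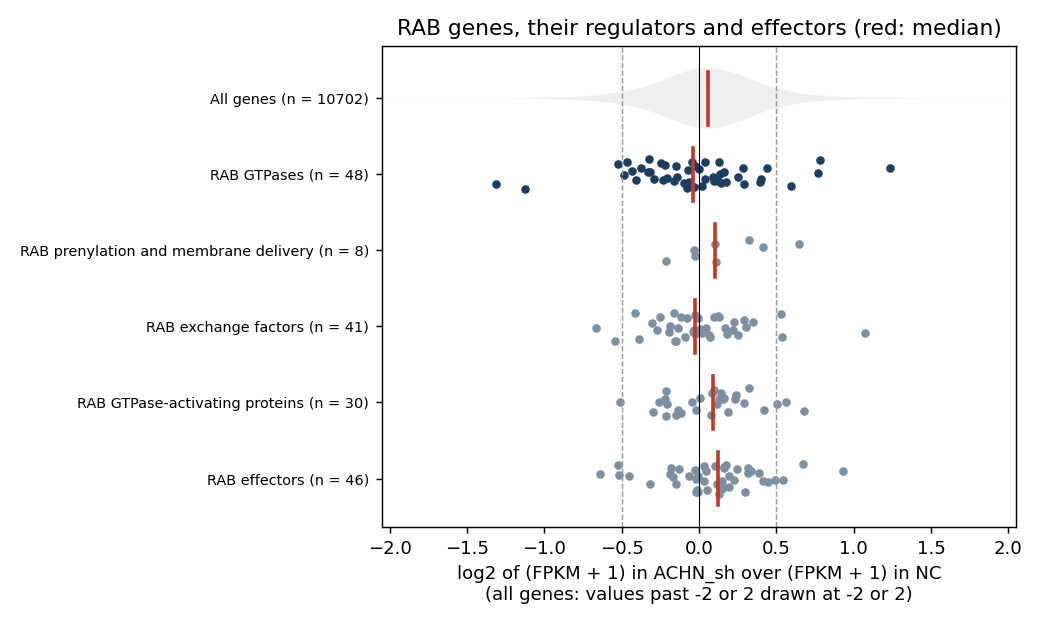
Log2 change of FPKM plus 1 in ACHN_sh relative to NC for the RAB genes, for each list of their regulators and effectors (a point per gene) and for all genes kept (a violin), with a red line at the median and dashed lines at 0.5 in either direction. The medians lie between -0.04 for the RAB genes and 0.12 for the effectors, and TRAPPC5 at 1.08 and RAB5A at 1.24 are the highest points of their lists.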

How the data were processed

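ACHN cells were sequenced as 1 library with an shRNA against KIAA1429 (ACHN_sh) and 1 with a control shRNA (NC), from poly(A) RNA in strand-specific paired-end libraries. The authors deposited FPKM per gene for each library. The submitters' processing notes name cutadapt 1.9, HISAT2 2.0.4, StringTie 1.3.4d, DESeq2 and edgeR, with no role for each. The genome build is not given in the sources used here, and gene identifiers and positions match GENCODE genes placed on GRCh37. The files list genes above 0.5 FPKM in at least 1 library. Read counts are not kept in FPKM, which leaves the depth unknown, and no counting interval or count test was possible.

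The deposited FPKM values, on the log2 scale after adding a pseudocount of 1, were compared between the libraries for genes with a mean of at least 1 FPKM. A symbol on several rows (7 symbols) was represented by its highest row. Genes past 0.5, and past 1 and 1.5, were counted. Role lists, lists of RAB regulators and marker lists were written by hand from known functions. The members and lists were chosen with earlier results of these data known. The text names members past 0.5, the 10 highest in NC, paralog sets, members under 1 FPKM, up to 3 genes in each direction past 0.5 from each regulator list, VIRMA and every marker listed, except 1 that is not reported here. Members named beyond this rule were added after their values were seen, to fill in their role lists. Alternatives tried were centring on the median of all genes, a pseudocount of 0.1, rescaling to a sum of 1000000 with and without mitochondrial genes, no filter or a mean of at least 5 FPKM, leaving out overlapping genes, summing rows of a symbol and a limit of 1. The steps were run on simulated data with large changes placed in highly expressed genes only. That run does not cover the smaller changes or lower levels of most RAB genes. Promoter sequences were from RefSeq (GRCh38.p14), matched by symbol, and coding sequences from GENCODE 29. Protein sequences were not used here. Python 3.11.15, NumPy 2.4.6, pandas 2.3.3, Biopython 1.88 and matplotlib 3.10.9 were used.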

Additional observations from a re-analysis of the deposited data

How the results depend on the processing

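With 1 library per group no difference has an error, so directions rest on these libraries alone. No paired analysis was possible because each group holds a lone library. The median of the RAB genes stayed below that of all genes under each alternative for it, with differences of -0.13 to -0.036, and was above 0 at 0.02 when a mean of at least 5 FPKM was required. Rescaling to a sum of 1000000 moved the RAB median to 0.11 and the log2 ratio of the summed RAB level to 0.13, and gave 8 higher and 2 lower RAB genes, against 23.9% and 4.59% of all genes. Centring gave 5 lower RAB genes (10.4%, against 7.69% of all genes) and a pseudocount of 0.1 gave 7 (14.6%, against 8.73%). Rescaling without mitochondrial genes gave a RAB median of -0.06 and a log2 ratio of the summed RAB level of -0.05. It gave 6 lower and 5 higher RAB genes, against 8.39% and 13.7% of all genes. Leaving out overlapping genes gave 2 lower (4.65%) and 3 higher (6.98%) of 43, against 5.68% and 9.82% of all genes. Past 1.5 there was 1 RAB gene, RAB43, with a pseudocount of 0.1 and under both rescalings, where the share of all genes was not computed. A limit of 1 gave 3 RAB genes in either direction, 1 higher (2.08%, against 1.61% of all genes) and 2 lower (4.17%, against 0.897%). With a mean of at least 5 FPKM, medians relative to all genes changed sign for the Golgi list to 0.057 over 8 genes, the early endosome list to 0.088 over 3, the cilium list to -0.053 over 1 and the prenylation list to -0.081 over 5, since fewer genes remained. Summed with ISY1-RAB43, an alternative chosen after seeing the data, RAB43 turned to 0.63, and RAB27A summed with PIGBOS1 was at 0.39.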

Other observations

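Genes with names of the form RABL, which encode GTPases like the RABs and which the naming rule leaves out, numbered 4 in the files. RABL3 was at 1.56 FPKM in NC and at 3.24 FPKM in ACHN_sh, a log2 change of 0.73. RABL2A, a ciliary GTPase, was at 1.24 and 2.27 FPKM, a log2 change of 0.54, while its near copy RABL2B was at 2.82 and 2.80 FPKM, and how fragments were divided between them was not tested. RABL6 was at 8.24 and 6.45 FPKM, a log2 change of -0.31. These genes were chosen after the data were seen.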
